A study of Mus musculus with 60 samples.

Results

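Genes of cholesterol synthesis and its control were followed in primary mouse hepatocytes treated with hepatocyte growth factor (HGF), with and without its receptor Met. The members were all probes annotated to 1 of 8 genes: the synthesis enzymes Hmgcs1, Idi1, Fdps, Fdft1, Sqle and Lss, and the regulators Insig1 and Srebf2. A probe was found for 7 of the 8 genes, 8 probes among 21997 on the array, and Hmgcs1 is not analysed here. Srebf2 had 2 probes and the other genes 1 each. Of these, 7 probes of 6 genes entered the tests among 14580 probes, since Idi1 had too many missing values. No member is itself a receptor or carrier that takes up cholesterol, although Srebf2 and Insig1 act on uptake genes as well as on synthesis, so the values below are about synthesis and its control.

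The KO cells came from 129SV/C57BL6 mice with the genotype Alb-Cre +/-; Met Fl/Fl, in which the albumin promoter drives Cre in hepatocytes. The WT cells came from C57BL mice labelled as Cre controls, and those arrays that give a genotype call them heterozygous for Cre recombinase, so both groups carried Cre. Strain changed together with genotype, and the 2 cannot be told apart. All mice were males of 9 to 10 weeks. Cells were left untreated or kept with HGF for 0.5 h, 2 h, 12 h or 24 h, at a dose written as 50 ng/ml in one label and as 50 nM in another, which made 10 groups of 3 replicates. The labels describe cultures from individual mice, which the times of a genotype may share. An untreated culture kept to a later time is not analysed here, so every comparison with untreated cells holds the time in culture as well as HGF, and these cannot be told apart.

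Cholesterol is built from acetyl-CoA through mevalonate and isoprenoid units. Hmgcs1 acts before mevalonate, Idi1 and Fdps handle the isoprenoid units, Fdft1 joins them into squalene, Sqle oxidises squalene and Lss closes the ring to give lanosterol. Later enzymes such as Cyp51, Msmo1 and Dhcr7 turn lanosterol into cholesterol. Srebf2 encodes the transcription factor SREBP2, which is released from the endoplasmic reticulum when sterols are low and switches on synthesis and uptake genes together. Insig1 and Insig2 hold the complex of SREBP and its escort Scap in the endoplasmic reticulum when sterols are plentiful. The liver is a main site of this synthesis.

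The promoters of Srebf2, Insig1 and Lss are shown because these are the members with a promoter sequence whose probes gave the larger differences from untreated cells after Fdps. Each run is the 250 bases before the RefSeq transcription start on build GRCm38.p6, plus strand, at chr15:82147019-82147268, chr5:28071162-28071411 and chr10:76531355-76531604 in that order. Capitals mark matches on either strand to the core of the sterol regulatory element (TCACNCCA), the CCAAT box (CCAAT, or ATTGG on the other strand) and the E-box (CACGTG).
Srebf2: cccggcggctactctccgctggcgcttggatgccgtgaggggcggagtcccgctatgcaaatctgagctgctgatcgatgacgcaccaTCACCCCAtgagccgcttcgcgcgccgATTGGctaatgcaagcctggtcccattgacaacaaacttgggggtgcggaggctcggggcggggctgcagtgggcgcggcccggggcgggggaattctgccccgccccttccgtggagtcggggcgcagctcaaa
Insig1: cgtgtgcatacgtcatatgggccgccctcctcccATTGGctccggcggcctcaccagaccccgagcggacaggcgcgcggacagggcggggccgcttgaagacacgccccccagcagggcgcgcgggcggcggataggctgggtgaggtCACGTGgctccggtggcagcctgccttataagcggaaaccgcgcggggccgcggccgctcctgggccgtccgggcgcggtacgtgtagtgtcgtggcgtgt
Lss: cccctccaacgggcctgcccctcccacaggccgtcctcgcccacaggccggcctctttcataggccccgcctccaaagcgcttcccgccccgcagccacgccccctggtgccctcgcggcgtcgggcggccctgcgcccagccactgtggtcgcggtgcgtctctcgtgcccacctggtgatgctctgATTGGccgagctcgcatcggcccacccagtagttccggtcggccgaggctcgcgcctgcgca

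Promoters were found in the RefSeq table for 5 of the 8 genes, Hmgcs1, Idi1, Lss, Insig1 and Srebf2. The sterol element core was matched once in Srebf2, starting 162 bases before the start, and once in Hmgcs1, starting 137 bases before it, against 3.58% of 27025 promoters of the same length. All 5 held a CCAAT box, which 34.5% of promoters hold. Insig1 held an E-box 101 bases before its start, a motif in 6.05% of promoters. The GC box (GGGCGG, either strand, not capitalised) was present in all 5 and in 32.9% of all promoters. The capitalised matches did not overlap one another, and a match is a run of letters, not a measured binding site.

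Each replicate was hybridised to 2 arrays, once in each dye, beside RNA pooled from WT hepatocytes (60 arrays), and its value is the mean of the 2 log2 ratios. The ratio was taken as sample over reference, which the sources used here do not state. Arrays held values for 17356 to 21511 probes, and the 3 replicates of a group limit the precision. The 2 dyes of a replicate correlated negatively over probes in 23 of 30 cases as deposited (r from -0.68 to 0.19). The Cy5 array of WT 0 h replicate 3 entered all 19 pairs of same-dye arrays with r under -0.3, so its direction is not settled, and calls that change when its sign is turned are given beside the result. Array numbers form 4 sets, and nearly all 0.5 and 2 h replicates lie in a set of their own without untreated replicates, so early differences from untreated cells carry the array set with them. Only KO replicate 3 was in 1 set (A) both untreated and at 2 h, so a term for array set ties these times through a single pair. Sets were assigned by the Cy5 array, and the 2 arrays of WT 24 h replicate 2 are split, Cy5 in C and Cy3 in B. The Met probe did not separate the genotypes (KO minus WT averaged over the times 0.075 ± 0.082, adjusted p = 0.64 in limma), and its position relative to the deleted part is not known here, so it does not check the KO label.

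Few member differences passed the test. Here ± is the standard error from limma, n is 3 and 3 replicates unless stated, and a called probe has an adjusted p (Benjamini-Hochberg over the 14580 probes) below 0.05. Over 18 comparisons the 7 member probes gave 126 tests, of which 1 was called, the fall of Fdps at 24 h in KO. That is 0.794% of the member tests, against 2.34% of all tests over the 14580 probes. An unadjusted p under 0.05 was found in 18 of the member tests. No member difference exceeded 1 on the log2 scale, but in 15 tests the 95% interval reached beyond 1 in size, so changes of that size were not excluded there.

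**Figure D1:**
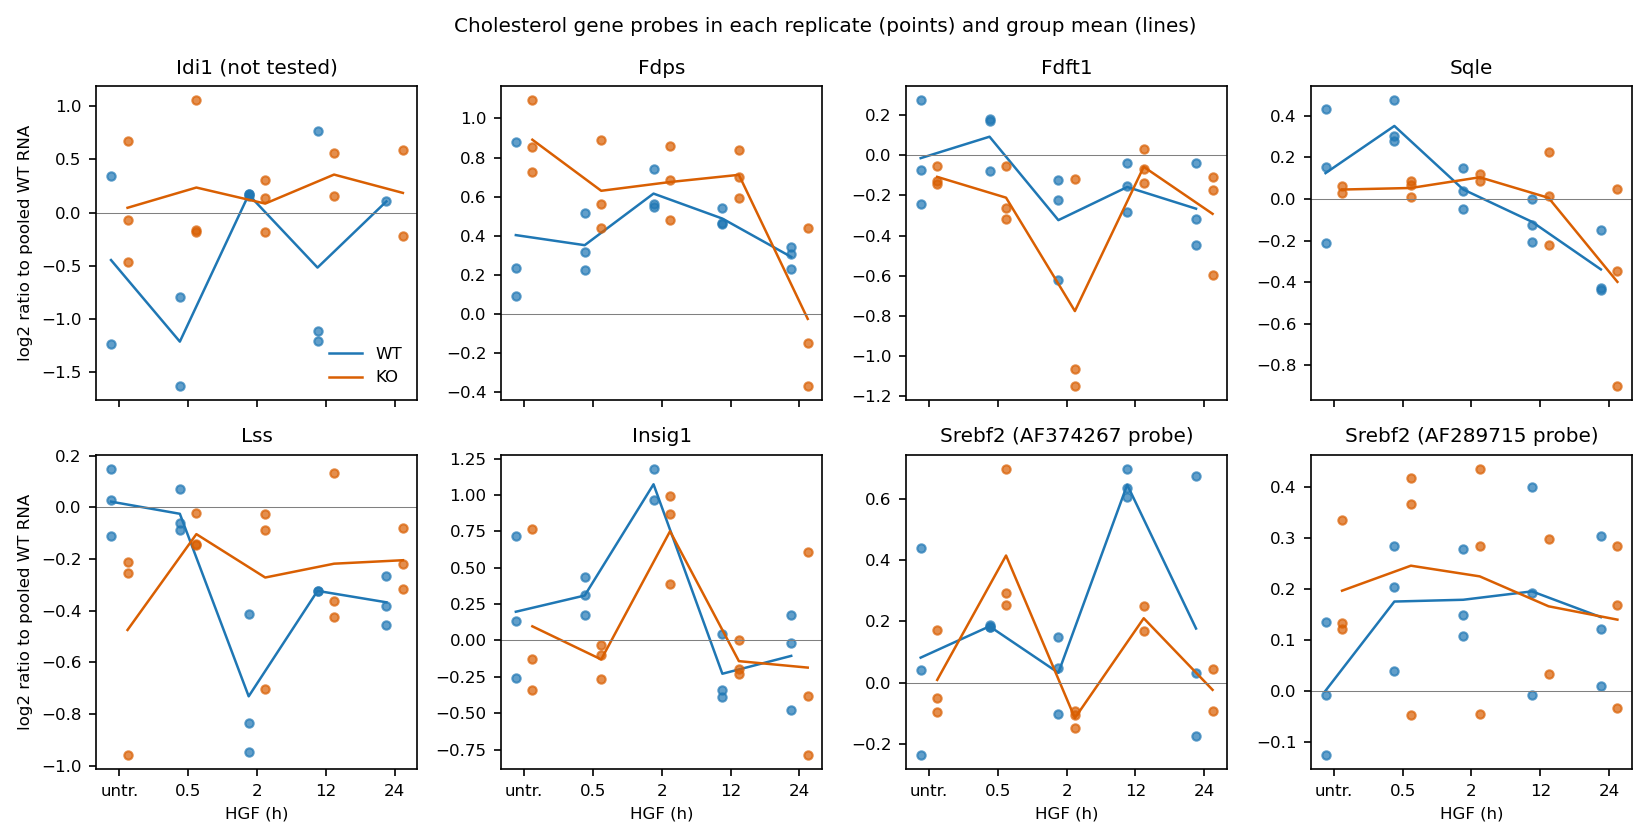
Log2 ratio to pooled WT RNA (vertical axis) of each cholesterol gene probe in untreated cells and after 0.5, 2, 12 and 24 h of HGF (horizontal axis). Points are replicates, lines join group means, WT is blue and KO orange, and Idi1 lacks values in 6 of 30 replicates. The 3 KO points of Fdps at 24 h, from -0.37 to 0.44, lie below the 3 untreated KO points, from 0.73 to 1.09.

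Fdps, which makes farnesyl diphosphate, was the only member with a called difference. In untreated KO cells its 3 replicates read 0.85, 0.73 and 1.09, and after 24 h of HGF they read -0.37, -0.15 and 0.44. The groups did not overlap, and replicate 3 stood above the other KO replicates at both times. The level at 24 h was 53.0% of the untreated level, a difference of -0.92 ± 0.18 (95% interval -1.30 to -0.54, adjusted p = 0.00582). This was 1 of 7 member probes called, where 3.48% of all probes were called and 2.94% were lower. The other member probes of that comparison lay between -0.44 and 0.27, and the median over the 7 was -0.18 against -0.00075 over all probes. The Fdps call was lost with Cy5 arrays alone (-0.84, adjusted p = 0.0503), with Cy3 arrays alone (-0.99, adjusted p = 0.12) and in a fit of the compared groups alone (adjusted p = 0.31). The adjusted p ranged from 0.000334 to 0.31 over the alternatives, and the difference was -1.05 among the replicates of array set C.

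In WT cells Fdps read 0.24, 0.093 and 0.88 untreated and 0.23, 0.34 and 0.31 after 24 h. These groups overlapped, and the untreated WT replicates spanned more than the treated ones. The WT difference was -0.11 ± 0.18 (95% interval -0.49 to 0.27, adjusted p = 0.79). The KO response minus the WT response was -0.80 ± 0.26 (adjusted p = 0.19), so the responses were not shown to differ. That difference was called with array set as a term (-0.86) and within array set C (-1.17), but in neither with the split WT 24 h replicate 2 left out (-0.77 and -1.11, adjusted p = 0.071 and 0.074, the second with 1 WT replicate at 24 h assumed to vary like the rest). It was also called with the sign of the unsettled array turned (-0.995), without WT 0 h replicate 3 (-1.04) and without KO 24 h replicate 3 (-1.04). Over all times the WT means of Fdps were 0.40 untreated and 0.35, 0.62, 0.49 and 0.29 at 0.5, 2, 12 and 24 h (SD 0.045 to 0.42). The KO means were 0.89, 0.63, 0.68, 0.71 and -0.024 (SD 0.12 to 0.42). Untreated KO cells had the highest and 24 h KO cells the lowest mean of the 10 groups.

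Hepatocyte markers moved in the same 24 h comparisons. Of 7 tested markers of 8 listed, 5 fell in KO cells (median of the 7 -0.98), where 2.94% of all probes were lower. In WT cells 4 of the 7 fell (median -1.03), where 4.76% of all probes were lower. Asgr1, a hepatocyte surface receptor for glycoproteins, fell by 1.31 in KO and by 2.28 in WT, while Alb, which encodes albumin, read -0.083 in KO and -0.061 in WT and was not called. The mean of the 7 markers was between -0.10 and 0.12 in untreated KO replicates and between -1.06 and -0.45 in KO replicates at 24 h. The part of this shift in the Fdps result was not tested. As in any bulk sample, fewer cells of a type and less RNA per cell cannot be told apart. Among 5 tested markers each of Kupffer, endothelial and stellate cells, 1 of each list fell at 24 h in KO, and 0 of 5 bile duct markers were called there in limma (1 at an unadjusted p under 0.05). In WT at 24 h 2 of 5 Kupffer markers fell (the lowest at -1.52), 1 of 5 endothelial and 1 of 5 stellate markers fell, and of 5 bile duct markers 1 rose and 1 fell. Of all probes 3.48% were called in either direction at 24 h in KO and 8.72% in WT. Because all values are ratios to hepatocyte RNA, they do not show whether a marker was present or absent.

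Idi1, which interconverts the isoprenoid units, had both dyes in 24 of 30 replicates and was not tested. Its replicate values ran from -1.63 to 1.06 with a median of 0.12. The WT group means were -0.45 untreated and -1.21, 0.17, -0.52 and 0.11 at 0.5, 2, 12 and 24 h, from 2, 2, 3, 3 and 1 replicates. The KO means were 0.046, 0.24, 0.085, 0.36 and 0.19, from 3, 3, 3, 2 and 2 replicates. The dyes of a replicate differed by a median of 2.12 for this probe, more than the whole range of its group means, and had opposite signs in 15 of 24 replicates, so no order of the groups can be read from it.

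Fdft1, squalene synthase, stood lowest at 2 h of HGF in KO cells. The 3 replicates there read -1.15, -1.06 and -0.12, against -0.13, -0.14 and -0.054 untreated. The groups overlapped, because replicate 3, whose array numbers lie in another set than those of replicates 1 and 2, lay among the untreated values. The difference was -0.67 ± 0.20 (95% interval -1.08 to -0.25, adjusted p = 0.60) and was called without that replicate (-0.997, adjusted p = 0.0164). With array set as a term it was -0.062, a value that rests on replicate 3 alone, the only link between untreated and 2 h cells within a set. In limma 0 of 7 member probes were called at 2 h in KO (2 at an unadjusted p under 0.05, 0.0343% of all probes called). Fdft1 in WT cells read -0.62, -0.12 and -0.22 at 2 h against -0.24, -0.072 and 0.27 untreated, a difference of -0.31 ± 0.20 (adjusted p = 0.57). The WT means over the times were -0.014, 0.092, -0.32, -0.16 and -0.27 (SD 0.12 to 0.26), and the KO means -0.11, -0.21, -0.78, -0.0575 and -0.29 (SD 0.047 to 0.57).

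Sqle, squalene epoxidase, had its 2 lowest group means at 24 h of HGF. In WT cells it read -0.21, 0.15 and 0.43 untreated and -0.44, -0.43 and -0.15 at 24 h. The groups overlapped by 1 low untreated replicate. The difference was -0.46 ± 0.18 (95% interval -0.83 to -0.095, adjusted p = 0.12), or 72.6% of the untreated level. In limma 0 of 7 member probes were called in this comparison (1 at an unadjusted p under 0.05), where 8.72% of all probes were called. KO cells read 0.0285 and 0.0625 untreated, with replicate 3 missing, and -0.90, -0.34 and 0.049 at 24 h. The KO difference was -0.44 ± 0.20 (3 and 2 replicates, adjusted p = 0.27), and the KO response minus the WT response was 0.019 ± 0.27 (95% interval -0.53 to 0.57). Without WT 0 h replicate 1 the WT difference was called (-0.63), and without KO 24 h replicate 3 so was the KO difference (-0.67). The WT means over the times were 0.12, 0.35, 0.046, -0.11 and -0.34 (SD 0.099 to 0.32) and the KO means 0.0455, 0.053, 0.10, 0.0057 and -0.40 (SD 0.024 to 0.48). As given above, hepatocyte markers were lower at 24 h in both genotypes, and their part in these values was not tested.

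Lss, lanosterol synthase, gave its lowest values at 2 h of HGF in WT cells. The replicates read -0.83, -0.95 and -0.41 at 2 h and -0.11, 0.027 and 0.15 untreated. The groups did not overlap. The difference was -0.75 ± 0.19 (95% interval -1.14 to -0.36, adjusted p = 0.072), or 59.3% of the untreated level. All WT 2 h replicates lie in a set without untreated replicates, so this difference carries the array set with it. In limma 0 of 7 member probes were called at 2 h in WT (2 at an unadjusted p under 0.05), where 0.446% of all probes were. Lss was called there after scale normalization (-1.08), with 3 dye profiles removed (-0.76) and with the sign of the unsettled array turned (-0.76). Later WT differences of Lss were -0.35 at 12 h (2 and 3 replicates) and -0.39 at 24 h, both without overlap and not called, the latter called with array set as a term and the split WT 24 h replicate 2 left out (-0.47, adjusted p = 0.0466). KO cells read -0.088, -0.026 and -0.70 at 2 h and -0.25, -0.21 and -0.96 untreated, with 1 low replicate in each group. That was replicate 3 both times, whose arrays lie in set A. The difference was 0.20 ± 0.19 (adjusted p = 0.95) in the fit without array set. The KO response minus the WT response was 0.96 ± 0.27 (95% interval 0.40 to 1.51, adjusted p = 0.54). No member was called in this comparison in limma (1 at an unadjusted p under 0.05), nor in the same comparison at 0.5 h (0), 12 h (1) or 24 h (2), where 0.0274%, 0.00686%, 0.0754% and 0.727% of all probes were called. The WT means of Lss over the times were 0.022, -0.025, -0.73, -0.32 and -0.37 and the KO means -0.47, -0.10, -0.27, -0.22 and -0.20, the 12 h WT mean from 2 replicates.

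**Figure D2:**
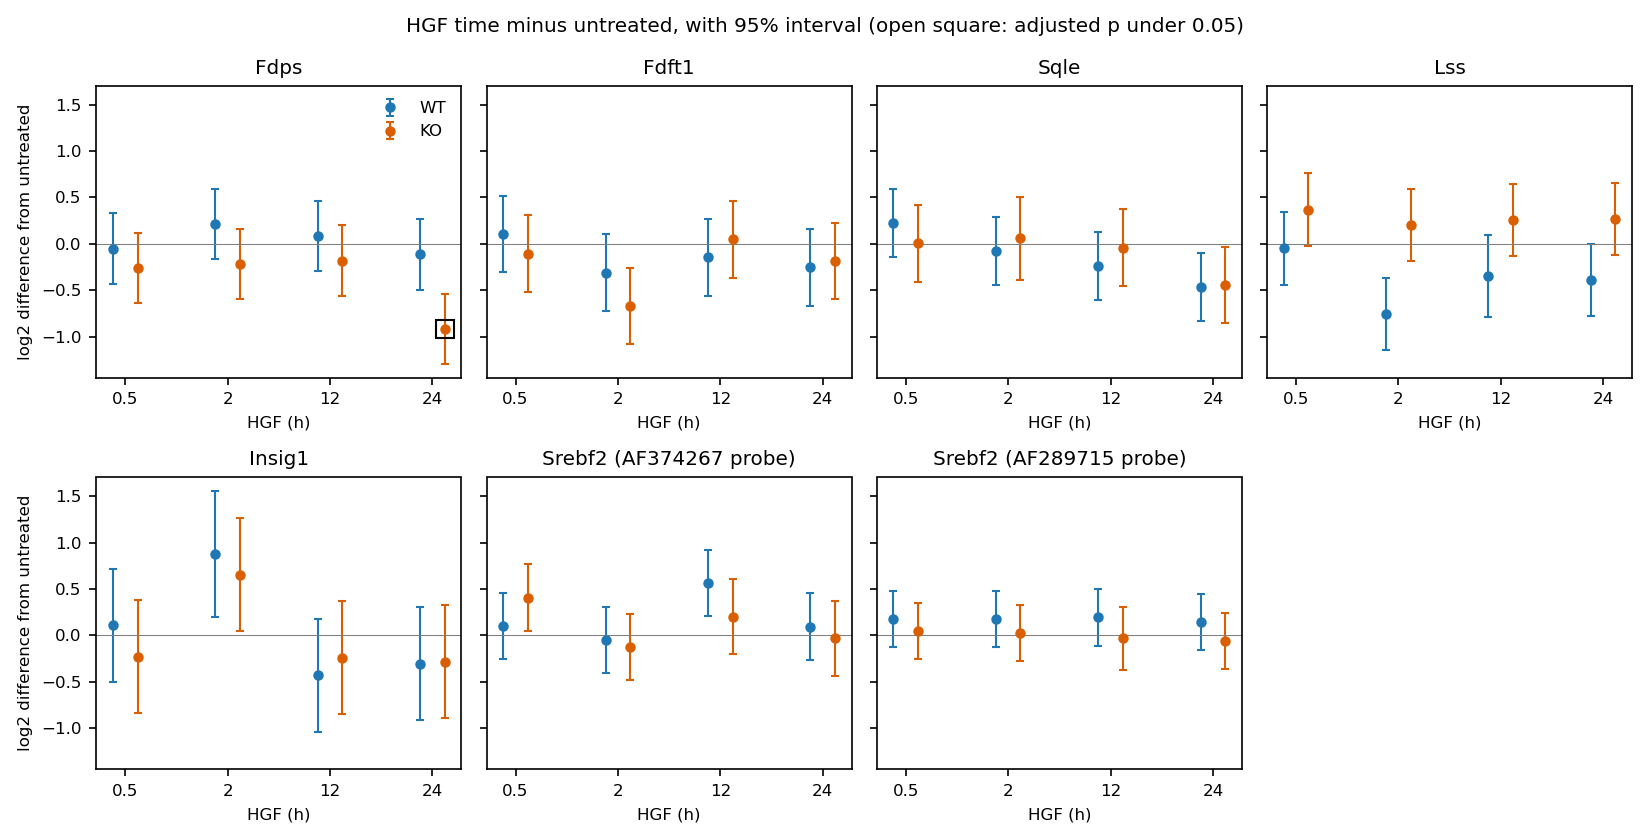
Log2 difference from untreated cells of the same genotype (vertical axis) at each HGF time (horizontal axis) for the 7 tested member probes, with the 95% interval from limma. WT is blue, KO orange, and the open square marks the only called difference, Fdps at 24 h in KO at -0.92.

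Insig1, the sterol-dependent anchor of SREBP and a target of it, stood highest at 2 h of HGF in both genotypes. WT cells read 1.18 and 0.97 at 2 h, with replicate 2 missing, and -0.26, 0.13 and 0.72 untreated. KO cells read 0.87, 0.39 and 0.99 at 2 h and -0.13, -0.34 and 0.77 untreated. The WT groups did not overlap and the KO groups did, through the high replicate 3 of the untreated cells. The WT difference was 0.88 ± 0.33 (2 and 3 replicates, 95% interval 0.20 to 1.56, adjusted p = 0.24). The KO difference was 0.65 ± 0.29 (95% interval 0.046 to 1.26, adjusted p = 0.84). Neither was called in the main fit or under any alternative run. All WT 2 h replicates and KO 2 h replicates 1 and 2 lie in a set without untreated replicates, so these differences carry the array set. KO replicate 3, in set A at both times, read 0.99 at 2 h and 0.77 untreated. Over the alternatives the difference ranged from 0.50 to 1.14 in WT and from 0.23 to 0.99 in KO. The means at the other times were 0.20, 0.31, -0.23 and -0.11 in WT (untreated, 0.5, 12 and 24 h) and 0.097, -0.13, -0.14 and -0.19 in KO. The SDs ran from 0.12 to 0.72, the widest spread among the tested members.

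Srebf2 was read by 2 probes that did not run together. For the first (AF374267) WT replicates read 0.63, 0.70 and 0.61 at 12 h of HGF and 0.44, 0.041 and -0.24 untreated. The groups did not overlap. The difference was 0.56 ± 0.17 (95% interval 0.20 to 0.92, adjusted p = 0.056), or 148% of the untreated level. In limma 0 of 7 member probes were called at 12 h in WT (1 at an unadjusted p under 0.05), where 5.81% of all probes were called. It was called with no centring (0.56, adjusted p = 0.0483), with 3 dye profiles removed (0.57) and without WT 0 h replicate 1 (0.74). Within array set C it was 0.41 and not called. KO cells read 0.17 and 0.25 at 12 h, with replicate 2 missing, and -0.0505, 0.17 and -0.094 untreated, a difference of 0.20 ± 0.19 (2 and 3 replicates, adjusted p = 0.91). At 12 h in KO 0 of 7 member probes were called in limma (0 at an unadjusted p under 0.05), where 0.13% of all probes were.

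The second Srebf2 probe (AF289715) gave 0.20 ± 0.15 for the same WT comparison (95% interval -0.11 to 0.50, adjusted p = 0.51). Read in Cy5 alone it was called at 12 h (0.73) and at 24 h (0.60) in WT. Its 10 group means lay between 0 and 0.25, the narrowest range among the tested members. The means of the first probe ran from -0.12 in KO cells at 2 h to 0.65 in WT cells at 12 h. Over 28 replicates with both values the 2 probes correlated with r = 0.061, so a statement about Srebf2 mRNA rests on which probe is read. Which part of the transcript each probe covers is not known here. The first probe also had the smallest dye difference of the members (median 0.0925), against 0.335 for the second and a median of 0.454 over all tested probes.

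At 0.5 h of HGF 0 of 7 member probes were called in WT and 0 of 7 in KO in limma (0 and 1 at an unadjusted p under 0.05), where 0.123% and 0.00686% of all probes were called. The first Srebf2 probe in KO read 0.26, 0.29 and 0.70 against -0.0505, 0.17 and -0.094 untreated, without overlap, and its difference was 0.41 ± 0.17 (adjusted p = 1.00).

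No member difference between KO and WT passed the test. At 0 h, 0 of 7 member probes were called in limma (2 at an unadjusted p under 0.05), where 0.0617% of all probes were. At 0.5 h it was 0 of 7 (0 at that p, 4.3% of all probes called), at 2 h 0 of 7 (2 at that p, 0.432%), at 12 h 0 of 7 (1 at that p, 2.84%) and at 24 h 0 of 7 (0 at that p, 4.77%). Averaged over the 5 times it was again 0 of 7 (0 at that p) where 10.2% of all probes were called. The averaged differences of the 7 probes ran from -0.17 for Insig1 to 0.15 for Fdps, and their 95% intervals all lay between -0.45 and 0.32. These intervals bound only the mean over the 5 times, in which differences of opposite sign cancel. Lss, for example, was -0.50 untreated and 0.46 at 2 h, and 0.031 averaged. The untreated value leaned on KO replicate 3 in array set A, which read -0.96 beside -0.25 and -0.21. Over the alternatives it ranged from -0.72 to -0.19.

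Single times gave larger values with wider intervals. Untreated KO cells read 0.49 ± 0.18 above WT in Fdps (adjusted p = 0.79), with overlapping groups, and -0.50 ± 0.19 in Lss (adjusted p = 0.81), without overlap. At 2 h Lss was 0.46 ± 0.19 (adjusted p = 0.45) and Fdft1 -0.45 ± 0.20 (adjusted p = 0.51). Within array set D, which leaves out KO 2 h replicate 3, both were called, Lss at 0.67 and Fdft1 at -0.78. At 0.5 h Insig1 was -0.44 ± 0.29 (adjusted p = 0.42) and Sqle -0.30 ± 0.18 (adjusted p = 0.36), in both cases with every KO replicate below every WT replicate. Both were called in a fit within array set D. That set holds every 0.5 h replicate of both genotypes, so the differences stayed the same and only the estimate of the spread changed. At 12 h the first Srebf2 probe was -0.44 ± 0.19 (2 and 3 replicates, adjusted p = 0.30), without overlap. At 24 h Fdps was -0.32 ± 0.18 (adjusted p = 0.36) and was called within array set C (-0.54), but not with the split replicate left out (-0.49, adjusted p = 0.17).

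**Figure D3:**
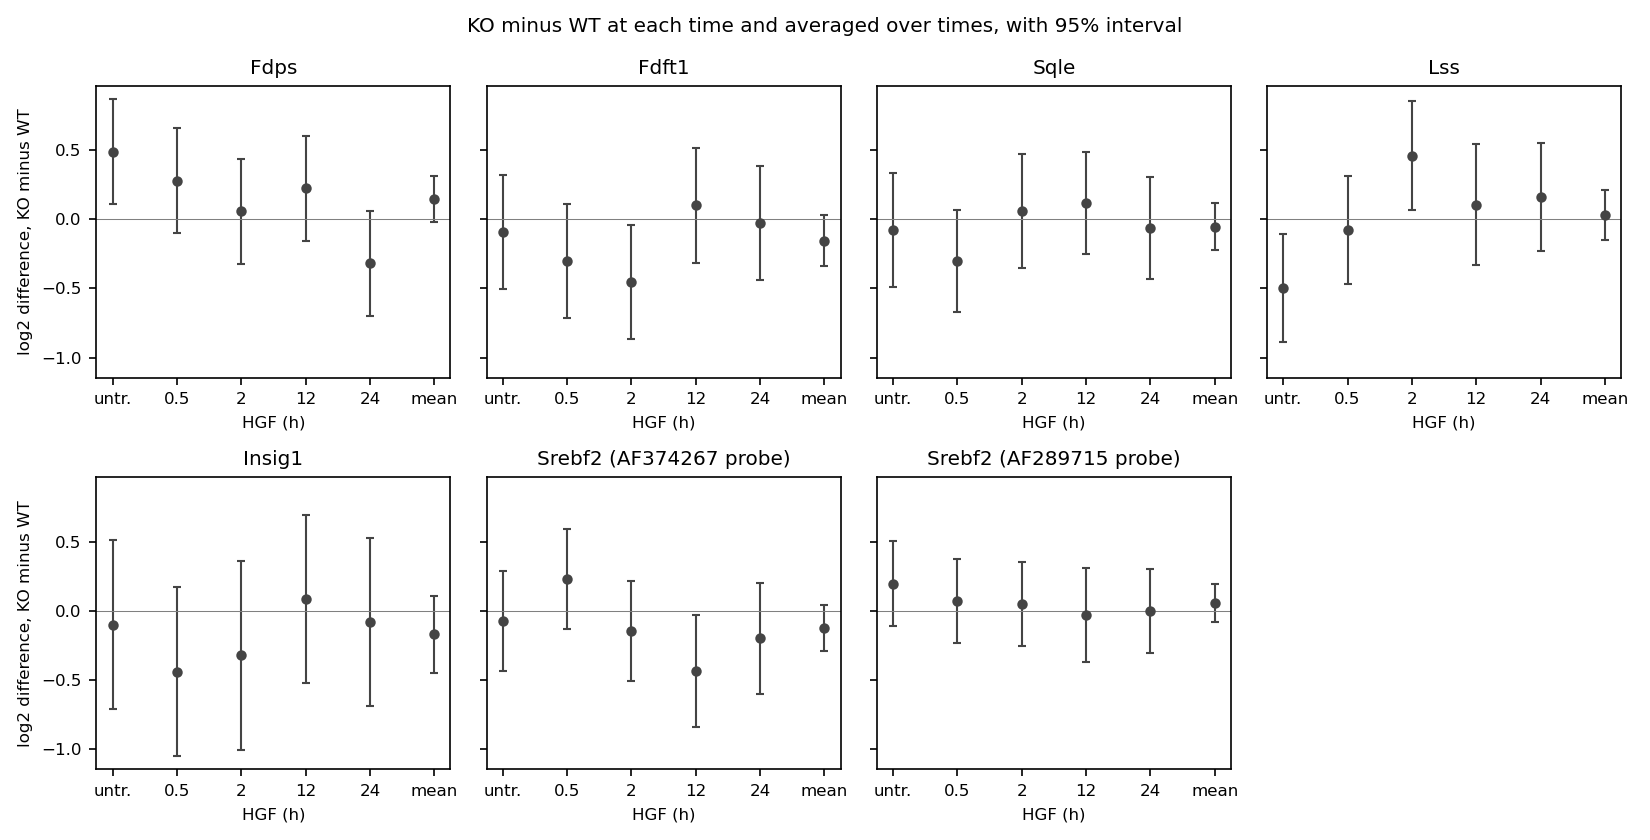
Log2 difference, KO minus WT (vertical axis), in untreated cells, at each HGF time and averaged over the 5 times (horizontal axis) for the 7 tested member probes, with the 95% interval from limma. No difference was called, and the averaged differences lie between -0.17 and 0.15.

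Groups next to each other in the order of the 10 means were rarely separated in the tested members. Sorting puts close means side by side, and the share over all probes was not counted, so this is no trait of the members. Groups further apart could be separate, as untreated and 24 h KO cells were in Fdps. Of 9 neighbouring pairs in that order, 8 overlapped in Fdps, Sqle and the first Srebf2 probe and 9 in the other tested probes. The separated neighbours were WT at 2 h above WT at 12 h in Fdps and KO at 2 h (2 replicates) above KO at 0.5 h in Sqle. In the first Srebf2 probe KO at 0.5 h stood above KO at 12 h (2 replicates). The widest range of means, 1.30, was that of Insig1, from WT at 2 h to WT at 12 h. The narrowest, 0.25, was that of the second Srebf2 probe.

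The 2 dyes read several members differently. The Cy5 and Cy3 readings of a replicate differed by a median of 0.609 in Fdps, 0.619 in Sqle, 0.587 in Insig1 and 0.543 in Fdft1, each above the median of 0.454 over all tested probes, and by 0.297 in Lss. They had opposite signs in 20 of 28 replicates of Sqle, 18 of 29 of Insig1 and 16 of 30 of Fdft1, but in 8 of 30 of Fdps, 8 of 29 of Lss and 5 of 28 of the first Srebf2 probe.

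**Figure D4:**
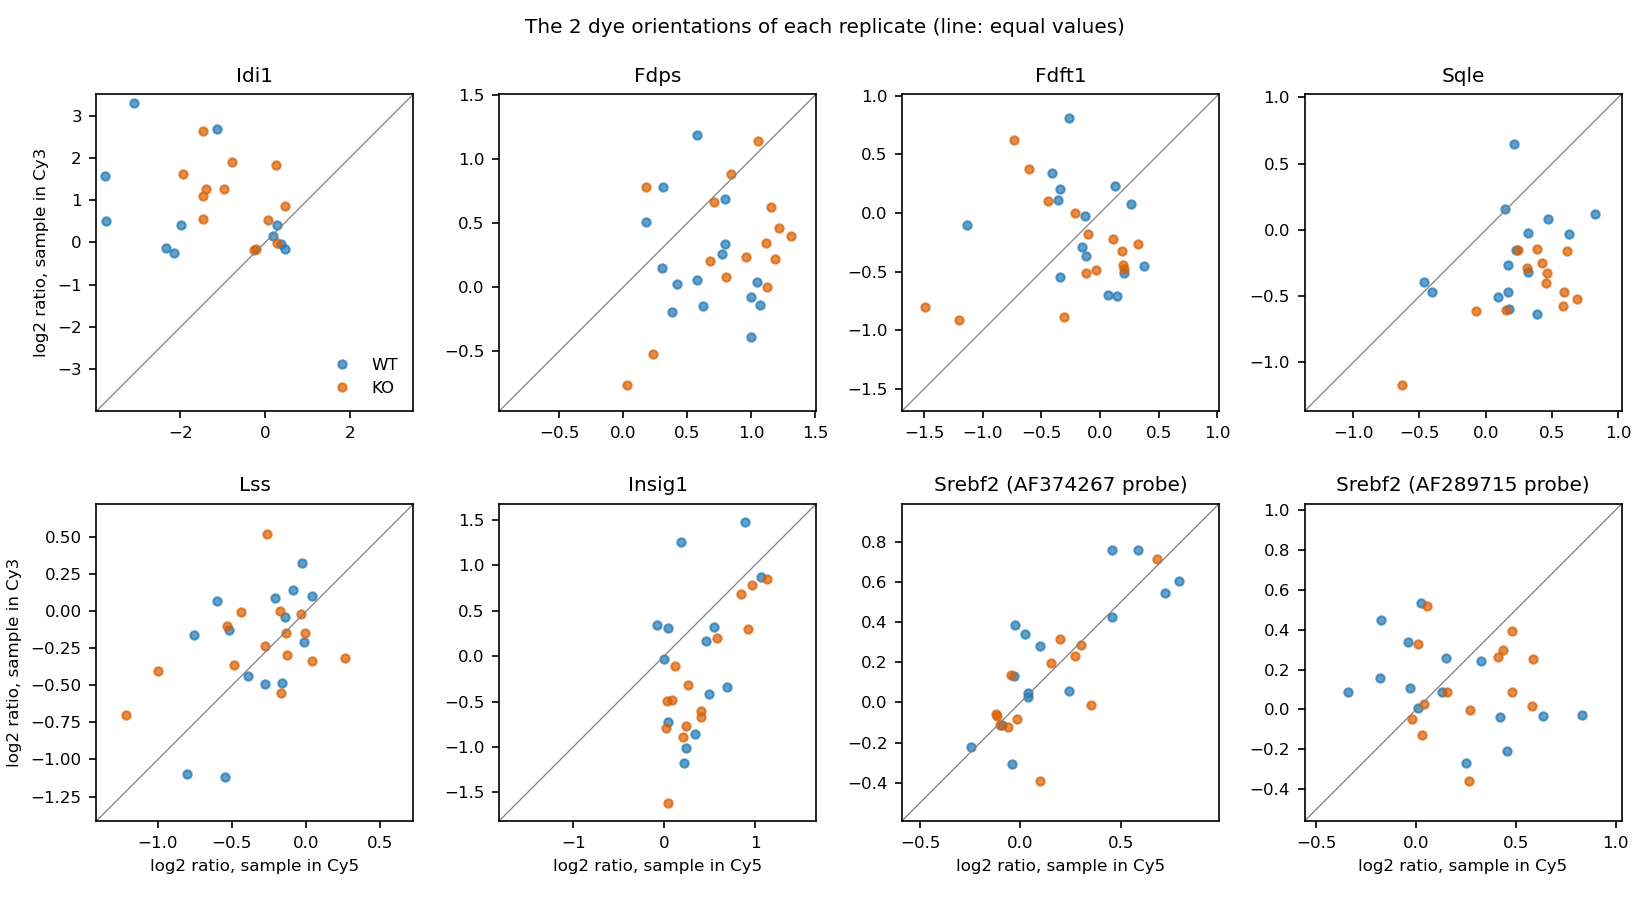
Log2 ratio of each replicate with the sample in Cy3 (vertical axis) against the ratio with the sample in Cy5 (horizontal axis), for the 8 member probes. Points are replicates, WT blue and KO orange, and the line marks equal values. The first Srebf2 probe follows the line (median difference 0.0925), while Idi1 departs from it (median difference 2.12).

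Across replicates the members moved together only in part. Of 21 pairs of tested probes 13 had a positive correlation, with a median r of 0.058 and a range from -0.56 to 0.59. The highest was Fdps with Sqle (r = 0.59, 28 replicates), followed by Sqle with Insig1 (r = 0.52, 27 replicates). The lowest was Insig1 with the first Srebf2 probe (r = -0.56, 27 replicates). These are descriptions over replicates that share arrays, dyes and groups. The mean profile of the 6 tested genes, each centred on its own mean, was highest in WT cells at 0.5 h (0.16 ± 0.063 SD) and lowest at 24 h, at -0.16 ± 0.12 SD in WT and -0.21 ± 0.30 SD in KO (n = 3 each).

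The genes outside the members whose replicates followed that mean profile most closely were Stt3a (r = 0.79), Sdf2 (0.78), Hrg (0.78), Hsd11b1 (0.78), Slc37a2 (0.78) and Dmrt2 (0.78), each over 29 or 30 replicates among 10953 probes ranked. Hrg encodes a plasma glycoprotein made by hepatocytes, and Stt3a a subunit of the enzyme that attaches sugars to new proteins. Among 22 other cholesterol genes, 7 lay in the top 10% of that ranking and 16 had an r above 0. The share of all ranked probes with an r above 0 was not counted. Cyp51, which acts just after Lss, ranked 39 (r = 0.73), and Msmo1, which acts after Cyp51, ranked 116 (r = 0.68). Near the other end lay the synthesis gene Ggps1, ranked 10892 (r = -0.61), and the regulator Mbtps1, ranked 10646 (r = -0.51). The members followed their own mean profile unequally. Sqle (r = 0.88), Fdps (0.70) and Insig1 (0.67) were closest to it, and Fdft1 (0.39) and Lss (0.17) less close. The second Srebf2 probe, the one that entered the profile, had r = 0.061 and the first -0.30.

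The other genes of the pathway were taken from lists of synthesis (16 genes, 10 tested), uptake and trafficking (11, 6 tested), further regulators (7, 3 tested) and efflux and esterification (8, 3 tested). Over the 18 comparisons these 22 genes gave 396 tests, of which 10 were called higher and 21 lower, or 7.83% against 2.34% over all probes. The members were left out of these counts.

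Among the 10 tested synthesis genes, 3 fell after 24 h of HGF in WT cells (Dhcr7, Tm7sf2 and Msmo1), where 4.76% of all probes were lower. In KO cells 2 fell (Msmo1 and Dhcr7), where 2.94% were lower, and none rose in either genotype. Others did not pass the test, such as Nsdhl, Ebp and Cyp51, which read -0.018, -0.15 and -0.32 in WT and -0.20, 0.036 and -0.48 in KO. Mvd had the lowest KO difference of the 10 genes, -1.34, and was not called. Its KO replicates at 24 h read -0.17, -3.32 and -0.44, so 1 replicate weighed heavily. Dhcr7, the reductase that makes cholesterol from its last precursor, read 0.45, 0.84 and 0.63 in untreated WT cells and -0.40, -0.86 and -1.10 at 24 h. These groups lay far apart, and the difference was -1.43 ± 0.16 (adjusted p = 1.92e-06). In KO cells Dhcr7 read 0.79, 0.67 and 0.53 untreated and -0.20, -0.025 and -0.14 at 24 h, a difference of -0.79 ± 0.16 (adjusted p = 0.0061). At 12 h it had fallen in WT (-0.86 ± 0.16, adjusted p = 0.00275), and it was higher in KO than in WT at 12 h (0.62) and 24 h (0.66). Of all probes 2.84% were called for KO minus WT at 12 h and 4.77% at 24 h. The genotype call of Dhcr7 was lost in 8 of 20 alternatives at 12 h and in 9 of 22 at 24 h. The call of its fall was lost in 3 of 20 at 24 h in KO, 2 of 20 at 12 h in WT and 0 of 22 at 24 h in WT.

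Msmo1, a methylsterol oxidase, fell in the same cells as Fdps. Its KO replicates read 0.16, 0.024 and 0.42 untreated and -1.06, -1.08 and -0.63 at 24 h, without overlap. The difference was -1.12 ± 0.17 in KO (adjusted p = 0.000467) and -0.54 ± 0.17 in WT (adjusted p = 0.0448), where the groups overlapped. The WT call was lost in 13 of 22 alternatives and the KO call in 2 of 20. At 24 h Msmo1 was lower in KO than in WT (-0.71 ± 0.17, adjusted p = 0.013, lost in 7 of 22 alternatives), as it was averaged over the times (-0.44 ± 0.075, adjusted p = 0.000287). Tm7sf2, a sterol reductase, fell in WT at 24 h (-0.72 ± 0.15, adjusted p = 0.00276), a call lost in 4 of 22 alternatives. At 24 h it was higher in KO than in WT (0.52), a call lost in 13 of 22 alternatives. Averaged over the times Dhcr7 (0.39) and Tm7sf2 (0.29) were higher in KO and Msmo1 and Sc5d (-0.36) lower, where 10.2% of all probes were called. The other 6 tested synthesis genes, Cyp51 among them, were not called in any of the 18 comparisons.

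Insig2, the second anchor of SREBP, fell with HGF in WT cells. It read -0.065, 0.097 and -0.14 in untreated WT cells and -0.70, -0.66 and -1.58 at 24 h. The difference was -0.94 ± 0.17 (adjusted p = 0.000748) and at 12 h -0.61 ± 0.17 (adjusted p = 0.0348), the latter lost in 8 of 20 alternatives and of the other sign in another, Cy5 arrays alone (0.0207). In KO cells Insig2 was -0.17 at 24 h and not called. It was higher in KO than in WT at 24 h (0.90 ± 0.17, adjusted p = 0.00173) and averaged over the times (0.39). Of all probes 4.77% were called for KO minus WT at 24 h and 10.2% averaged over the times. The 24 h genotype call was lost in 5 of 22 alternatives and the 24 h WT call in 3 of 22, with values from -1.51 to -0.37. The other tested regulators, Srebf1 and Mbtps1, were not called in any comparison.

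Of the 6 tested uptake and trafficking genes none was called in a comparison with untreated cells. At 0.5 h 2 of the 6 were called lower in KO than in WT, where 4.3% of all probes were called. They were Lrp1, an endocytic receptor (-0.96 ± 0.25), and Npc2, which binds cholesterol in lysosomes (-0.69 ± 0.19). The calls were lost in 6 of 20 alternatives for Lrp1 and 11 of 18 for Npc2. With Cy5 arrays alone both were positive and not called (0.27 and 0.035). Averaged over the times Lipa, the lysosomal lipase, was higher in KO (0.61) and Npc1 lower (-0.33), where 10.2% of all probes were called. The Npc1 call was lost in 21 of 40 alternatives.

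The efflux and esterification genes were called after HGF in WT cells, 1 higher and 2 lower of 3 at 24 h, where 8.72% of all probes were called. In KO cells at that time 0 of 3 were called in limma (2 at an unadjusted p under 0.05), where 3.48% of all probes were. Abca1, the exporter that loads HDL, fell at 12 h (-0.50 ± 0.13, adjusted p = 0.0239) and 24 h (-0.70 ± 0.14, 2 and 3 replicates, adjusted p = 0.00299). Lcat, the plasma enzyme that esterifies cholesterol, fell at 12 h (-1.05 ± 0.28, adjusted p = 0.0246) and 24 h (-1.36 ± 0.28, adjusted p = 0.00209). Abcg8, which with Abcg5 exports sterols into bile, rose instead, from -0.12, -0.0195 and -0.33 untreated to 0.63, 0.65 and 0.32 at 24 h in WT (0.69 ± 0.16, adjusted p = 0.00699). That call was lost in 7 of 22 alternatives, with values from 0.19 to 1.19. At 24 h Abcg8 was lower in KO than in WT (-1.06 ± 0.16, adjusted p = 0.00016), where 4.77% of all probes were called. This call was lost in 2 of 22 alternatives. Averaged over the times Abcg8 was lower (-0.38) and Lcat higher (0.38) in KO, where 10.2% of all probes were called. The Lcat call was lost in 25 of 43 alternatives. Abcg5 had too many missing values to be tested. The 12 h calls were lost in 10 of 19 alternatives for Abca1 and 7 of 20 for Lcat, and the 24 h calls in 5 of 20 and 1 of 22. Hepatocyte markers fell in the same WT comparisons, 3 of 7 at 12 h (5.81% of all probes called) and 4 of 7 at 24 h (8.72%). Kupffer and bile duct markers were called as given above. The part of these markers in the efflux and esterification values was not tested.

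**Figure D5:**
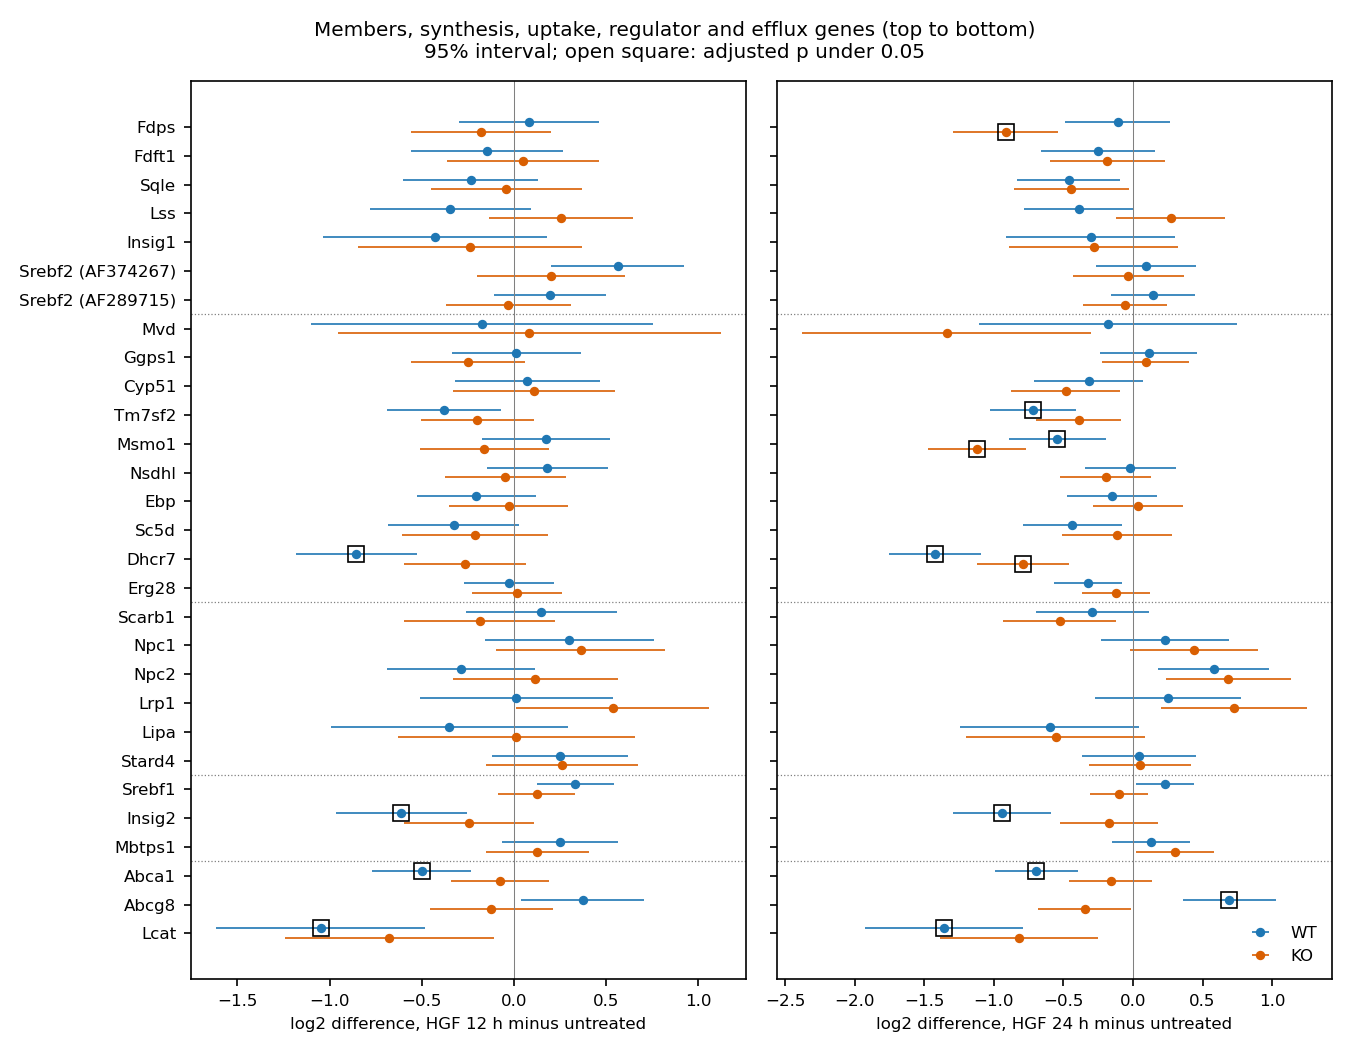
Log2 difference from untreated cells (horizontal axis) at 12 h (left) and 24 h (right) of HGF for the tested members and, under each dotted line, the other synthesis, uptake, regulator and efflux genes (vertical axis), with the 95% interval from limma. WT is blue, KO orange, and open squares mark called differences. At 24 h Fdps, Msmo1 and Dhcr7 are called in KO and 7 pathway genes are called in WT.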

How the data were processed

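The data were 60 two-colour oligonucleotide arrays, 2 per replicate with exchanged dyes, for 30 replicates in 10 groups. The deposited values are log2 ratios, 1 for each probe on each array. Their log base was taken from the range (-11.6 to 9.85), and the normalization, numerator and genome build are not given in the sources used here. Of the values, 6.01% were missing. The median of each array was subtracted before the 2 orientations of a replicate were averaged. Tests took the probes read in both orientations in 2 or more of the 3 replicates of every group. Probes were named through the platform annotation, with 16076 probes of 1 symbol, 288 of several and 5633 of none, and 15877 symbols were updated through the RefSeq gene table.

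A model with a mean for each group was fitted to the 30 replicates with limma 3.58.1 (R 4.3.3; 20 residual and 4.48 prior degrees of freedom). The 18 comparisons were KO minus WT at 5 times and averaged, each HGF time minus untreated per genotype, and the differences of these responses. Tests were two-sided, with a Benjamini-Hochberg adjusted p under 0.05 as the threshold. For the averaged comparison, replicates that share genotype and repeat number formed a random block (correlation -0.0023, statmod 1.5.0). Same-numbered replicates were not treated as paired elsewhere in the main fit. The correlations of their deviations ran from -0.25 to 0.67, with medians from -0.075 to 0.01. They do not settle whether the times share mice. The p-values measure the spread between cultures labelled as separate mice.

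The members and gene lists were chosen with earlier results of these data known. All member probes were described, the called ones with every replicate. Replicate values of other members were given where the unadjusted p was under 0.05 or where they are the matching comparison in the other genotype, a choice made after the values were seen. Pathway genes were counted and those called were named, and the 6 probes most like the members' mean profile were named from probes with 1 symbol and at least 24 replicates. The fit was run on simulated independent values with the spread of each probe and known changes in KO at 24 h. These held no array sets, dye effects or shared mice, so the run does not test the fit against those. The titles set the times, because the treatment label of the 12 h samples gives 0.5 h. Alternatives changed the centring, scaling, probe filter, dyes, array sets, the direction of 1 array, the spread, the pairing, the samples in the fit, or left out 1 replicate, and 2 were added after seeing the data, which left WT 24 h replicate 2 out of the fits by array set.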

Additional observations from a re-analysis of the deposited data

Results flagged for a closer look

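The response of Abcg8, a subunit of the sterol exporter of bile, differed between the genotypes at 24 h of HGF. It read -0.12, -0.0195 and -0.33 in untreated WT cells and 0.63, 0.65 and 0.32 at 24 h. In KO cells it read -0.22, 0.081 and -0.38 untreated and -0.50, -0.33 and -0.73 at 24 h. The KO response minus the WT response was -1.04 ± 0.23 (adjusted p = 0.0272 in limma), 1 of 22 pathway genes called where 0.727% of all probes were. The call was lost in 13 of 28 alternatives (adjusted p from 0.00395 to 0.44), among them Cy3 arrays alone (-0.61), the sign of the unsettled array turned (-0.82) and leaving out WT 0 h replicate 3, WT 24 h replicate 1 or 2, KO 0 h replicate 1 or 2 or KO 24 h replicate 3 (from -1.06 to -0.91).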

How the results depend on the processing

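Apart from leaving out 1 replicate, 1622 of 1645 member differences under the alternatives kept their direction and side of the threshold, 3 lost a call and 20 gained one; leaving out 1 replicate kept 1084 of 1092 and added 8. The number of member probes called, 1 for HGF 24 h in KO and 0 in the other comparisons, changed as follows. For HGF 24 h in KO it was 0 with Cy5 arrays only, 0 with Cy3 arrays only, 0 with only the groups compared and 1 to 2 with 1 replicate left out (2 without KO 24 h replicate 3). For KO minus WT it was, at 0.5 h, 2 within array set D and 1 with only the groups compared; at 2 h, 2 with array set as a term, 2 within set D and 0 to 1 with 1 replicate left out; at 24 h, 1 within set C; averaged, 1 with array set as a term and 0 to 1 with 1 replicate left out. In WT it was, at 2 h, 1 with scale normalization, 1 with dye profiles removed and 1 with the sign turned; at 12 h, 1 with no centring, 1 with Cy5 arrays only, 1 with dye profiles removed and 0 to 1 with 1 replicate left out; at 24 h, 1 with Cy5 arrays only, 1 (Lss) with array set as a term and the split replicate left out and 0 to 1 with 1 replicate left out. At 2 h in KO it was 0 to 1 with 1 replicate left out. For the difference of responses at 24 h it was 1 with array set as a term, 1 within set C, 1 with the sign turned and 0 to 1 with 1 replicate left out. The replicates behind the gains were KO 2 h replicate 3, WT 0 h replicates 1 and 3 and KO 24 h replicate 3. Read in Cy5 only, 3 called pathway differences reversed, Lrp1 (0.266) and Npc2 (0.0347) for KO minus WT at 0.5 h and Insig2 (0.0207) for HGF 12 h in WT. The replicate block left Fdps at -0.916 (adjusted p = 0.00595) and changed no member call; for 18 of 30 replicates the closest deviations were those of the same number. The causes were not tested. Sqle could not be fitted with array set as a term. The alternatives that leave out the split replicate were chosen after seeing the data. Over all probes the counts for HGF 24 h ran from 0 to 853 in KO and from 50 to 1897 in WT, and with 1 replicate left out from 160 to 981 and from 927 to 2005.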
